A study of Mus musculus with 2 samples.

Results

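Transcripts of 7 matrix metalloproteinase genes (Mmp2, Mmp3, Mmp9, Mmp11, Mmp12, Mmp14 and Mmp23) and 3 of their tissue inhibitors (Timp1, Timp2 and Timp3) were described in single cells of the mouse uterus. The genes were taken by symbol. Each of the 10 symbols was found once among the 32285 genes counted, and each had counts in both libraries.

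The data were 2 droplet libraries (10x Genomics, 3' end) of whole uterus from female C57BL/6J mice aged 6 months. Each library pooled 3 mice, so there is 1 library per genotype and the mice cannot be separated. The library labelled control came from Prickle1 f/f mice and the library labelled cKO from Prickle1 f/f MiC mice, so that both carry the f/f Prickle1 alleles. The series asks what loss of PRICKLE1 in the myometrium does to fertility, muscle architecture and matrix. MiC is not spelled out in the labels, the promoter that drives the deletion is not given there, and wild-type is entered as the genotype of both libraries. Tissue was digested in collagenase for 5 hours before capture. Cells of each library are called control-labelled and cKO-labelled here.

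The control-labelled library held 3490 cells and the cKO-labelled one 3586, with medians of 4953 and 4903 unique molecular identifiers (UMIs, each standing for 1 captured transcript) per cell, and 6 cell barcodes occurred in both. Prickle1 had 96 UMIs in control-labelled cells and 265 in cKO-labelled cells (2.56 and 9.03 CPM, defined below), and stood at 14.6 and 24.3 CPM in smooth muscle-like cells. These counts come from the 3' end and the deleted exons are not given in the labels, so they do not check the deletion. They were not lower in the cKO-labelled library, and each direction below is therefore one between labelled libraries. The makeup of the libraries differed, with 1309 and 109 epithelium-like cells and 851 and 1341 fibroblast-like cells, control-labelled first. Every marker fixed for a named class was detected in that class in both libraries.

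With 1 library per genotype there is no replicate error and no test. Levels are UMIs per 1000000 UMIs of the same cells (CPM), given for the control-labelled library first. Ratios are log2 of cKO-labelled over control-labelled CPM with 5 added to each, which understates the ratios of low genes. Ranges in brackets are 95% intervals that cover counting error only, not differences between mice or preparations. A gene is called past 2-fold where its ratio is at least 1 or at most -1 and its mean level is at least 10 CPM (the minimum). Levels are not compared between genes.

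Matrix metalloproteinases are zinc-dependent endopeptidases, made as inactive proenzymes, that cleave collagens, elastin, proteoglycans and other proteins outside the cell. TIMPs bind their active sites, and the balance of enzyme and inhibitor helps to set how fast matrix is turned over. In the uterus these genes are known for tissue remodelling in the oestrous cycle, at implantation and after birth.

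Mmp3 and Mmp12 belong to the metalloproteinase gene cluster of mouse chromosome 9. In the GENCODE annotation of GRCm38, Mmp3 lies at chr9:7445822-7455975 and Mmp12 at chr9:7344381-7369499, both on the forward strand, 76.3 kb apart with 0 protein-coding genes wholly between them. They had opposite contrasts in the cells that held most of their UMIs, Mmp3 lower in cKO-labelled fibroblast-like cells and Mmp12 higher in cKO-labelled macrophage or monocyte-like cells. The 150 bases before their RefSeq start sites (GRCm38.p6, forward strand, 5′ to 3′) are shown because each stretch holds 1 match to the AP-1 letters TGANTCA, where N is any base. The letters read the same on both strands, and the match is in capitals.
Mmp3, chr9:7445672-7445821: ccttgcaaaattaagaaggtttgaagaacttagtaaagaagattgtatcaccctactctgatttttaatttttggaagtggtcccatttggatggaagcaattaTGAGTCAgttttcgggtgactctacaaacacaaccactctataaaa
Mmp12, second listed start, chr9:7347224-7347373: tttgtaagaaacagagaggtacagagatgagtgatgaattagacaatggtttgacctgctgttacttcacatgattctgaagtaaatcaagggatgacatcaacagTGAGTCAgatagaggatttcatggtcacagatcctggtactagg
AP-1 is the Fos and Jun family of transcription factors. The match began at -46 from the Mmp3 start and at -44 from this Mmp12 start. RefSeq windows of 300 bases around the start were listed for 8 of the 10 members, 10 windows in all, and 2 of them held the letters. Among all 32851 windows of that length, 2565 (7.81%) held them. A match describes letters only and is no measure of binding.

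Fibroblast-like cells held most of the UMIs of Mmp2 (93.2% and 94.1%, control-labelled first), Mmp3 (94.3% and 91.7%), Mmp11 (91.1% and 91.2%), Timp1 (75.8% and 88.7%) and Timp2 (78.3% and 82.5%). Their share of Mmp14 (53.7% and 80.3%), Mmp23 (48.3% and 84.9%) and Timp3 (48.5% and 74.98%) differed more between libraries. Epithelium-like cells, which were far more numerous in the control-labelled library, held 28.6% of its Mmp14 and 44.7% of its Mmp23 UMIs. Mmp12 was found mainly in macrophage or monocyte-like cells, with 91.8% and 89.2% of its UMIs.

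**Figure D1:**
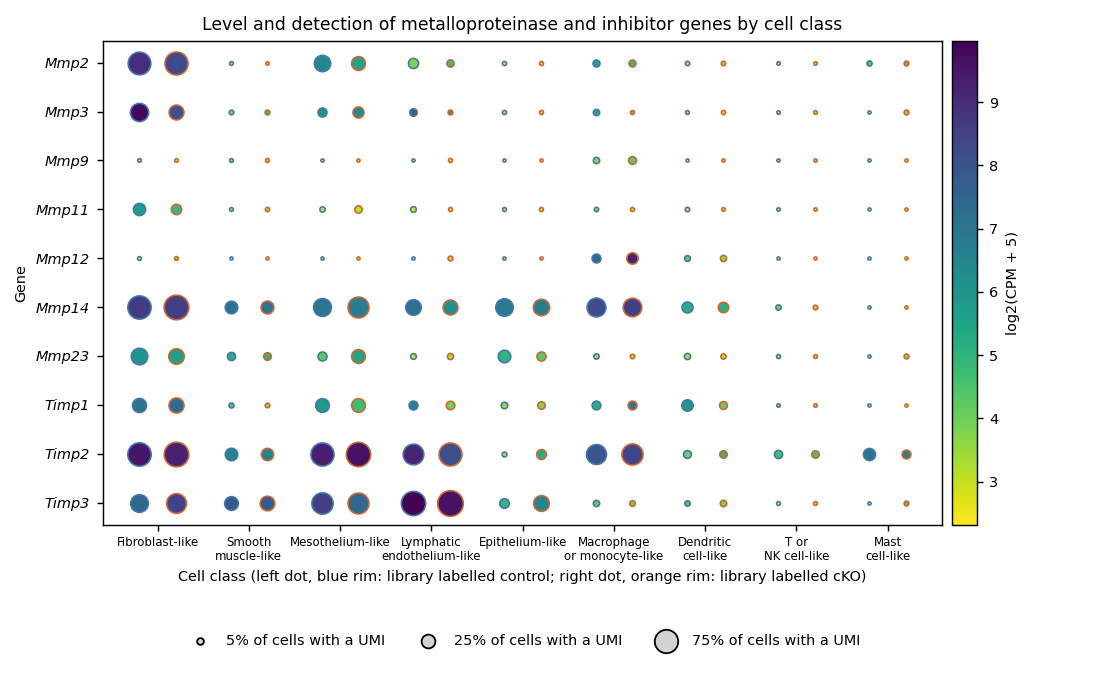
Level of each of the 10 genes (vertical axis) in 9 cell classes (horizontal axis); colour gives log2(CPM + 5), dot area the percent of cells with a UMI, and the left (blue rim) and right (orange rim) dots the libraries labelled control and cKO. Within a gene, Mmp2, Mmp3 and Mmp11 are darkest in fibroblast-like cells, Mmp12 in macrophage or monocyte-like cells and Timp3 in lymphatic endothelium-like cells. The last class also carried blood endothelium markers.

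The order of classes differed from gene to gene. Mmp2, a gelatinase that degrades denatured collagen and type IV collagen, was at 503 and 299 CPM in fibroblast-like cells. Mesothelium-like cells came next among named classes, at 80.3 CPM (63.1 to 101) and 40.97 CPM (25.97 to 61.5), then macrophage or monocyte-like cells, at 42.4 CPM (35.04 to 50.9) and 24.9 CPM (17.9 to 33.8). The intervals of the mesothelium-like and macrophage-like levels were apart in the control-labelled library and overlapped in the cKO-labelled one. The other named classes were under 20 CPM in both libraries.

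Timp3, which stays bound to matrix and also inhibits ADAM proteases, was highest in lymphatic endothelium-like cells, at 1347 and 783 CPM. Mesothelium-like (369 and 167 CPM), smooth muscle-like (222 and 225 CPM) and fibroblast-like cells (174 and 349 CPM) followed, in an order that differed between libraries. Timp2, a soluble inhibitor that also takes part in the activation of the Mmp2 proenzyme, was highest in fibroblast-like cells of the control-labelled library (737 CPM (719.9 to 754)) and in mesothelium-like cells of the cKO-labelled one (810.5 CPM (738 to 888)). Lymphatic endothelium-like values rest on 31 and 102 cells and mesothelium-like values on 81 and 32. The lymphatic endothelium-like cluster also carried 6 of 6 markers fixed for blood endothelium, which was not separated from it. At a finer cluster resolution of 2.0, a lymphatic endothelium-like cluster had 22 and 75 cells and a blood endothelium-like one 9 and 28.

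Mmp9, the other gelatinase, a product of granulocytes and macrophages, was scarce, with 41 and 62 UMIs in all cells. Macrophage or monocyte-like cells held 19 and 23 of them. The unnamed clusters, among them 1 led by B cell and granulocyte genes (Igkc, Ms4a1, S100a8), held 13 and 23, and no other class reached 10 UMIs.

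In fibroblast-like cells Mmp3 was lower in the cKO-labelled library. Of 8 members past the minimum, 1 was past 2-fold, Mmp3, and it was lower, against 2.12% of 7814 genes (1.46% higher and 0.665% lower). All 5 metalloproteinase genes past the minimum had ratios under 0, with a median of -0.74. Of the 3 inhibitors, 2 were above 0. Under 13 other settings the sign of Mmp14 held in 10, that of Timp1 in 12 and that of Timp2 in 11. How many of all genes lay above or below 0 was not counted. The median over all genes past the minimum was 0.09.

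Mmp3, a stromelysin that cleaves proteoglycans and fibronectin and activates other proenzymes, had 8344 and 4369 UMIs in 851 and 1341 fibroblast-like cells. Its level was 869.9 CPM (851 to 889) and 271 CPM (263 to 279), and the intervals were far apart. The log2 ratio was -1.67 (-1.72 to -1.61). It lay between -1.76 and -1.02 under the 13 other settings tried and was past 2-fold under each. Dropping the minimum, 1 of these settings, cannot move a ratio. Cells with a Mmp3 UMI made up 44.8% (41.4 to 48.2) and 29.2% (26.8 to 31.7) of the class, where median depths were 9434 and 10095 UMIs. With each cell thinned to 1000 UMIs, these shares became 25.7% and 12.8%. In T or NK-like cells, which should lack the gene, 0.321% and 0.561% of cells had a Mmp3 UMI, at median depths of 4267 and 3636. Both fibroblast-like shares were thus well above that background, and at equal depth the cKO-labelled share was the lower.

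Mmp3 was uneven from cell to cell. The 86 and 135 cells with most Mmp3 UMIs, 10% of each library's fibroblast-like cells, held 73.3 and 84.9% of the class total, and the highest cells held 372 and 139 UMIs. Mmp2 was spread over more cells, with 41.98 and 41.5% in the top 10%. Timp1 was as concentrated as Mmp3 in the cKO-labelled library, with 86.6 and 84.4%.

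Mmp2 and Mmp11 were also lower in the cKO-labelled library and were not past the 2-fold limit on the CPM + 5 scale. Mmp2 was at 503 CPM (489 to 517) and 299 CPM (291 to 308), with a log2 ratio of -0.74 (-0.80 to -0.68). Mmp11, a stromelysin that furin activates before secretion, was at 49.2 CPM (44.9 to 53.9) and 23.8 CPM (21.5 to 26.3), with a log2 ratio of -0.91 (-1.08 to -0.74). Neither pair of intervals overlapped. Mmp11 was past 2-fold under 2 of 13 other settings, at -1.02 with 1 CPM added in place of 5 and -1.50 in thinned cells.

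The membrane-anchored enzymes were nearer to even. Mmp14, a collagenase of the cell surface that activates the Mmp2 proenzyme, was at 411 CPM (398 to 424) and 374 CPM (364 to 383), with a log2 ratio of -0.13 (-0.19 to -0.08). That sign did not hold within clusters, where the mean ratio was 0.12. Mmp23 was at 57.1 CPM (52.4 to 62.1) and 46.9 CPM (43.6 to 50.4), with a log2 ratio of -0.26 (-0.41 to -0.11). Mmp9, with 4 and 8 UMIs, and Mmp12, with 8 and 87, were below the minimum in this class. The log2 ratio of Mmp12 was 0.83 (0.60 to 0.99), and 2 cells held 50% of the cKO-labelled Mmp12 UMIs.

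Among the inhibitors Timp3 stood apart. Timp1, a soluble TIMP that stromal cells raise in inflammation, was at 131 CPM (124 to 139) and 148 CPM (143 to 155), with a log2 ratio of 0.17 (0.08 to 0.27) that became -0.21 in thinned cells. Timp2 was at 737 CPM (719.9 to 754) and 611 CPM (599 to 623), with a log2 ratio of -0.27 (-0.31 to -0.23), and its mean within clusters was 0.13. Timp3 was at 174 CPM (166 to 183) and 349 CPM (339.6 to 358), with a log2 ratio of 0.98 (0.90 to 1.06), just under the 2-fold limit. A single cluster held most of its cKO-labelled UMIs.

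**Figure D2:**
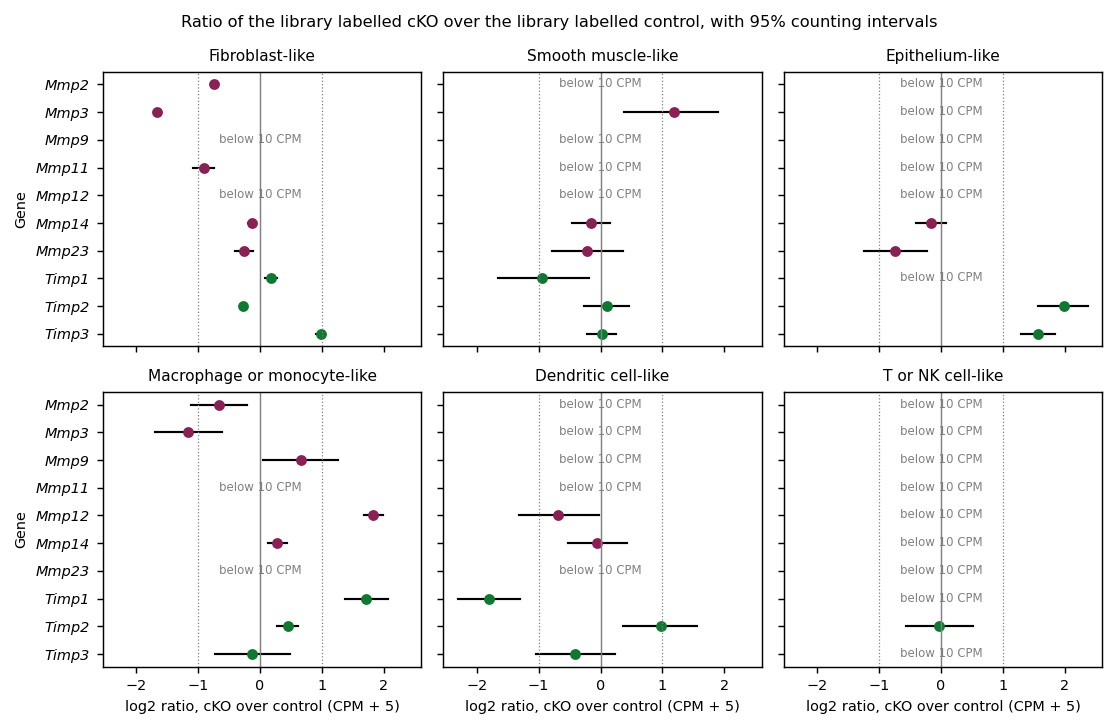
Log2 ratio of cKO-labelled over control-labelled levels (horizontal axis, CPM + 5) for each gene in the 6 classes with 100 or more cells per library; purple points are Mmp genes, green points Timp genes, bars 95% counting intervals and dotted lines the 2-fold limits. Mmp3 lies at -1.67 in fibroblast-like cells, Mmp12 at 1.83 in macrophage or monocyte-like cells and Timp3 at 1.57 in epithelium-like cells.

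The fibroblast-like class comprised 6 clusters, given by number and leading genes. Cluster 4 (Thbs2, Frzb, Nog) had 275 and 394 cells, cluster 9 (Pi16) 102 and 248, cluster 13 (Abca8a, Peg3) 150 and 162 and cluster 16 (Cxcl5, Il6, Ptx3) 66 and 163. Cluster 12, led by collagen genes, had 240 and 111 cells and was shallow, with medians of 1794 and 1780 UMIs. Cluster 22 (Scube1, A2m) had 18 and 263 cells and so came to 93.6% from the cKO-labelled library. The members and the pathway genes below were kept out of the genes used for clustering.

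Mmp3 was lower in the cKO-labelled cells of clusters 4, 9, 13 and 16. It was at 984 and 362 CPM in cluster 4 (-1.43, -1.51 to -1.35) and at 976 and 301 CPM in cluster 9 (-1.68, -1.81 to -1.55). Cluster 13 had 559.96 and 282 CPM (-0.98, -1.22 to -0.74), and its median depths were 6790.5 and 3018 UMIs, a gap whose part in the ratio was not tested. Cluster 16, whose leading genes include cytokines and chemokines, had the highest Mmp3 level of the 6 clusters in either library, 1173 and 584 CPM (-1.001, -1.10 to -0.90). The shallow cluster 12 differed by less than counting error, at 160.3 and 157 CPM (-0.03, -0.54 to 0.47). Cluster 22 had little Mmp3, with 39 UMIs in its cKO-labelled cells (7.78 CPM) and 0 in its control-labelled cells, where 3 UMIs would be 9.59 CPM. Without that cluster the class ratio was -1.20, and the mean of within-cluster ratios was -1.02, against -1.67 for the class.

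Mmp2 was lower in all 5 clusters with 20 or more cells per library, from -0.94 in cluster 13 (862 and 448 CPM) to -0.11 in cluster 12 (145 and 134 CPM), and 4 of the intervals lay under 0. Mmp11 differed most in clusters 9 and 13. It was at 82.5 and 27.3 CPM in cluster 9 (-1.44, -1.83 to -1.05) and at 110.1 and 22.1 CPM in cluster 13 (-2.09, -2.80 to -1.40), the latter on 125 and 14 UMIs. In cluster 16 it was at 14.4 and 12.9 CPM, within counting error. Mmp14 was higher in the cKO-labelled cells of clusters 4 (0.21, 0.12 to 0.29), 13 (0.20, 0.03 to 0.36) and 16 (0.29, 0.12 to 0.46), and lower in cluster 9 (-0.23, -0.37 to -0.09). Mmp23 was higher only in cluster 9 (42.3 and 66.7 CPM) of these 5 clusters. Of the 87 cKO-labelled Mmp12 UMIs, clusters 4 and 13 held 45 and 31.

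Timp3 depended most on cluster 22. This cluster held 3331 of 5624 cKO-labelled Timp3 UMIs of the class at 664 CPM (642 to 687), and 88 of 1673 control-labelled ones at 281 CPM (226 to 347), or 5.26% and 59.2%, control-labelled first. Without it the class ratio of Timp3 was 0.27 in place of 0.98. Within clusters Timp3 was higher in 4 of 5. Cluster 4 had 174 and 214 CPM (0.29, 0.16 to 0.42) and cluster 9 had 194 and 249 CPM (0.35, 0.15 to 0.56). The gaps were wider in cluster 16, at 43.3 and 109 CPM (1.24, 0.86 to 1.63), and in cluster 12, at 121 and 435 CPM (1.81, 1.40 to 2.21). Cluster 13, at 304 and 266 CPM, differed by less than counting error (-0.19, -0.45 to 0.08).

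Timp1 was itself among the 10 leading genes of cluster 16, where it was at 415 CPM (381 to 452) and 458 CPM (432 to 485). That cluster held 43.4% and 49.02% of the class's Timp1 UMIs in 7.76% and 12.2% of its cells. Timp1 was higher in the cKO-labelled cells of cluster 4, at 98.3 and 166 CPM (0.73, 0.57 to 0.89), and of cluster 9, at 17.7 and 43.1 CPM (1.08, 0.56 to 1.60). Cluster 13 had the opposite sign (-1.13, -1.97 to -0.27) on 42 and 9 UMIs. Timp2 was highest in cluster 9, at 1142 and 1198 CPM (0.07, -0.02 to 0.16), and its ratios ran from -0.34 in cluster 13 to 0.79 in cluster 12.

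**Figure D3:**
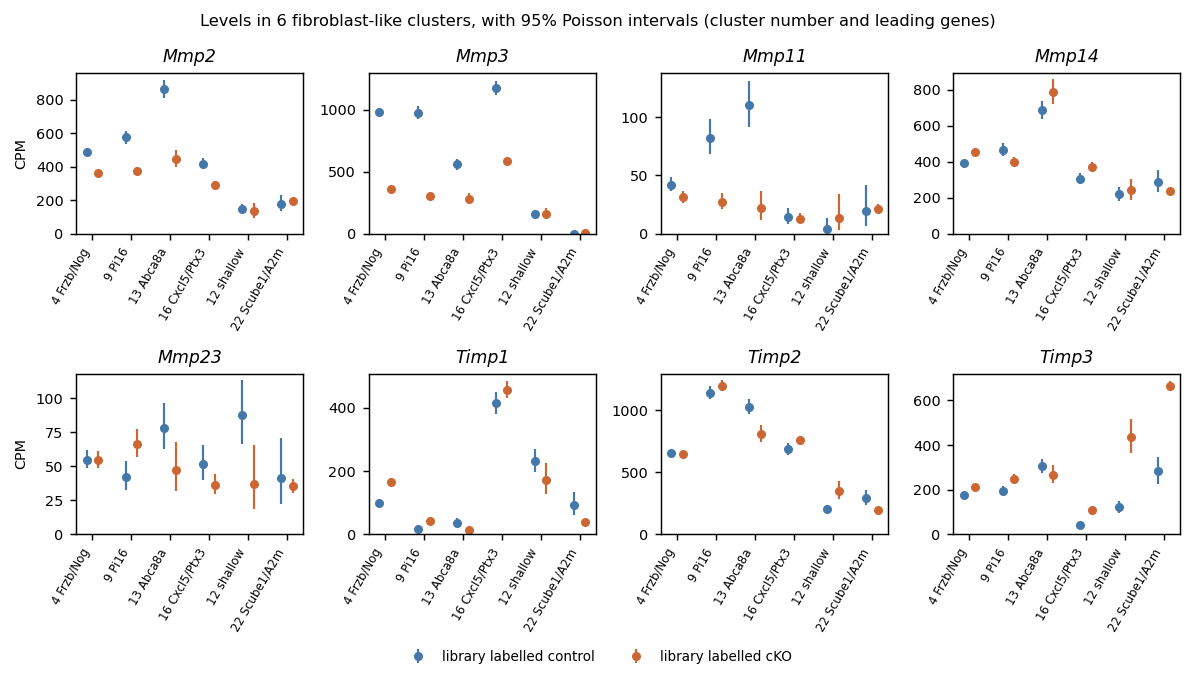
Level of 8 members (CPM, linear axes from 0) in the 6 fibroblast-like clusters; blue points are the library labelled control, orange points the library labelled cKO, and bars 95% Poisson intervals. Mmp3 is lower in orange in clusters 4, 9, 13 and 16, Mmp11 in clusters 9 and 13, and Timp3 stands highest in cluster 22, at 664 CPM.

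Metalloproteinase UMIs were also summed and set against inhibitor UMIs in the same cells. This is a ratio of captured transcripts for comparing libraries, with no measure of protein or activity. Fibroblast-like cells had 181 (177 to 186) and 92.1 (90.2 to 94.1) Mmp UMIs per 100 Timp UMIs, control-labelled first. With Mmp3 left out the values were 97.96 and 67.7. The ratio was lower in the cKO-labelled cells of each of the 6 clusters. Of these, cluster 22 had 18 control-labelled cells, under the 20 per library used for the within-cluster log2 ratios. The gap was wide in cluster 9 (158 (149.7 to 168) and 78.4 (74.6 to 82.3)), whereas the intervals overlapped in cluster 13 (168 (157 to 179) and 150 (136 to 165)).

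**Figure D4:**
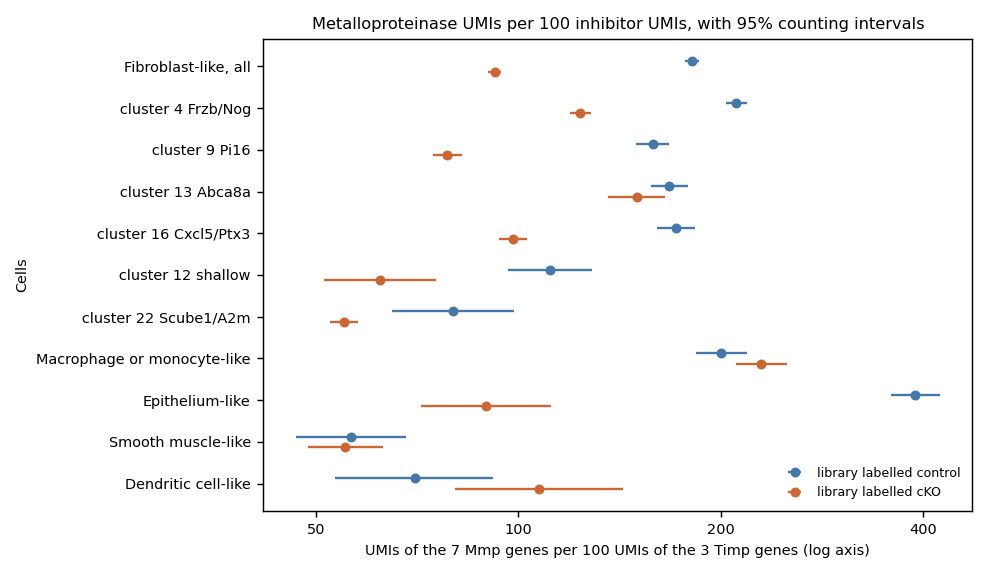
UMIs of the 7 Mmp genes per 100 UMIs of the 3 Timp genes (log axis) in fibroblast-like cells, their 6 clusters and 4 other classes; blue is the library labelled control, orange the library labelled cKO, and bars are 95% counting intervals. Fibroblast-like cells lie at 181 and 92.1, macrophage or monocyte-like cells at 200.4 and 229.6 and epithelium-like cells at 389 and 89.6.

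In macrophage or monocyte-like cells Mmp12 was higher in the cKO-labelled library. The gene, which encodes macrophage elastase, had 449 and 982 UMIs in 313 and 223 cells and stood at 164 CPM (149 to 180.04) and 598 CPM (561 to 636). The log2 ratio was 1.83 (1.67 to 1.99). Of 8 members past the minimum in this class, 2 were past 2-fold and higher, Mmp12 and Timp1, and 1 lower, Mmp3, against 3.42% of 7023 genes (1.07% higher and 2.35% lower).

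Erythroid markers summed to 7.31 and 1584 CPM and plasma cell markers to 262 and 1277 CPM in these cells, and their part in the ratios of this class was not tested.

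Few cells carried Mmp12 in either library. It was detected in 9.58% (6.56 to 13.4) and 16.6% (11.96 to 22.1) of cells, and after thinning to 1000 UMIs in 4.79% and 9.87%. Median depths were 7733 and 5789 UMIs, so the library with the higher share was the shallower. Among T or NK-like cells 0 of 312 and 0 of 713 had a Mmp12 UMI, which allows shares of up to 1.18% and 0.516%. The highest cells held 123 and 208 UMIs, and 3 and 4 cells held 50% of the total. The ratio was nonetheless 1.90 without the 5 cells of most Mmp12 UMIs per library, a setting chosen after seeing the data, and lay between 1.75 and 1.93 under all 13 other settings. Among these, dropping the minimum cannot move a ratio. Within-cluster means and leaving out clusters of 1 library could not move it either, because this class was 1 cluster with cells of both libraries. At a finer cluster resolution of 2.0, macrophage or monocyte-like cells formed a cluster led by Ccl12, Cmpk2 and Rsad2, with 88 and 19 cells. The other, led by F13a1, Il10 and C1qa, had 225 and 204 cells. The part of this unequal makeup in the Mmp12 ratio was not tested.

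Timp1 and Mmp3 in the same class rested on few cells. Timp1 was at 29.98 CPM (23.8 to 37.2) and 110.1 CPM (94.7 to 127), with a log2 ratio of 1.72 (1.37 to 2.06). The highest cKO-labelled cell held 83 of 181 UMIs, and without the 5 cells of most Timp1 UMIs per library the ratio was 0.17. Its shares of positive cells, 9.27% (6.29 to 13.04) and 9.42% (5.92 to 14.03), overlapped. Mmp3 was at 34.7 and 12.8 CPM (-1.16, -1.69 to -0.62) on 95 and 21 UMIs in 13 and 2 cells. Its ratio was -0.05 with the cells of highest doublet score removed. Mmp2, at 42.4 and 24.9 CPM (-0.66, -1.12 to -0.21), went to 0.97 on that removal. The 6 fibroblast markers, all detected, summed to 847 and 681 CPM here, against 11827 and 10495 CPM in fibroblast-like cells, and their part in the Mmp2, Mmp3 and Timp1 values was not tested.

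**Figure D5:**
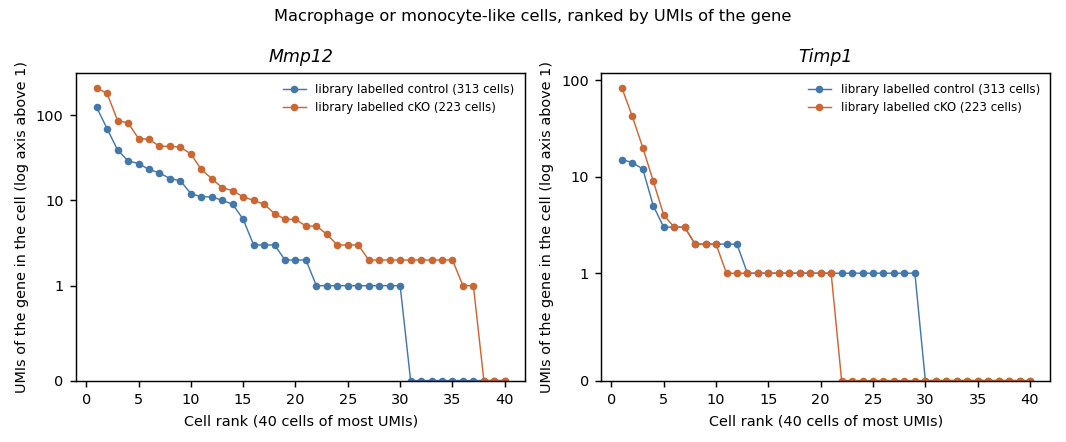
UMIs of Mmp12 (left) and Timp1 (right) in the 40 macrophage or monocyte-like cells of most UMIs, in rank order, on a vertical axis that is logarithmic above 1; blue is the library labelled control and orange the library labelled cKO. For Mmp12 the orange curve is above the blue one at every rank with a UMI, from 208 against 123 at the first, while for Timp1 it is well above at the leading ranks alone, with 83 against 15 at the first.

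The other members past the minimum in macrophage or monocyte-like cells were not past the 2-fold limit on the CPM + 5 scale. Mmp14 was at 302 CPM (282 to 323) and 368 CPM (339 to 399), with a log2 ratio of 0.28 (0.13 to 0.43), and 48.2% and 46.6% of cells carried it. Timp2 was at 237 CPM (219 to 256) and 324 CPM (297 to 353), with a log2 ratio of 0.45 (0.28 to 0.61). Mmp9 was at 6.95 and 13.996 CPM on 19 and 23 UMIs (0.67, 0.05 to 1.26), and Timp3 at 12.4 and 10.95 CPM, within counting error (-0.13, -0.73 to 0.48). In thinned cells the ratio of Mmp9 was 1.13 and that of Timp3 -1.83. The class had 200.4 (184 to 219) and 229.6 (210.4 to 251) Mmp UMIs per 100 Timp UMIs, and these intervals overlapped.

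In smooth muscle-like cells Timp3, Mmp14 and Timp2 were near even over the class as a whole. Muscle of the uterine wall, named in the series title, was not separated from muscle of vessels in this class. Of 6 pericyte markers 5 were detected in it, with sums of 56.2 and 52.3 CPM. Timp3 was at 222 CPM (193 to 254) and 225 CPM (205 to 246), Mmp14 at 136 CPM (114 to 162) and 122 CPM (107 to 138) and Timp2 at 86.4 CPM (68.8 to 107) and 92.8 CPM (80.2 to 107). In each case the intervals of the libraries overlapped. Of 6 members past the minimum, 1 was past 2-fold, Mmp3, which was higher, against 4.85% of 8170 genes (3.16% higher and 1.69% lower). Mmp3 was at 7.29 and 22.8 CPM on 7 and 48 UMIs (1.18, 0.38 to 1.89), in 1.58% and 1.903% of cells. Its ratio was 0.81 without the cells of highest doublet score and 0.97 without the 5 cells of most Mmp3 UMIs. Fibroblast markers, all 6 detected, summed to 1015 and 623 CPM, epithelium markers to 114 and 11.9 CPM and erythroid markers to 37.5 and 689.5 CPM in these cells, and their part was not tested. Timp1, on 16 and 13 UMIs, had a ratio of -0.95 (-1.65 to -0.19), and Mmp UMIs per 100 Timp UMIs were 56.4 (46.6 to 68.1) and 55.3 (48.6 to 62.8).

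The class comprised 3 clusters in unequal shares. Cluster 10, with 225 and 353 cells and median depths of 1560 and 1350 UMIs, held 71.2% and 51.7% of it, and cluster 20, with 79 and 245 cells at 5309 and 4098 UMIs, held 25% and 35.9%. Cluster 21 had 12 and 85 cells, too few in the control-labelled library for a comparison. Mmp14 was lower in the cKO-labelled cells of cluster 10, at 117 and 52.4 CPM (-1.09, -1.73 to -0.46), and its interval in cluster 20 held 0 (-0.34, -0.78 to 0.10). Mmp23 had opposite signs, with 65.5 and 26.2 CPM in cluster 10 (-1.18, -2.02 to -0.34) and 2.37 and 23.4 CPM in cluster 20 (1.95, 0.53 to 2.53), the latter on 1 and 27 UMIs. Timp2 was at 92.6 and 73.4 CPM in cluster 10 (-0.32, -0.93 to 0.30) and at 75.8 and 115 CPM in cluster 20 (0.58, 0.04 to 1.14). Mmp UMIs per 100 Timp UMIs were 100 (73.6 to 136) and 60.4 (43.6 to 83.1) in cluster 10, 38.1 (28.3 to 50.7) and 36.6 (30.6 to 43.5) in cluster 20 and 43.8 (24.9 to 74.5) and 154 (117 to 204) in cluster 21.

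Epithelium-like cells had higher Timp3 and Timp2 levels in the cKO-labelled library. Timp1 was below the minimum there, at 5.67 and 8.91 CPM (0.38, -0.18 to 0.96). Timp3 was at 26.3 CPM (24.03 to 28.7) and 87.6 CPM (72.5 to 105), with a log2 ratio of 1.57 (1.29 to 1.84). Timp2 was at 4.35 CPM (3.46 to 5.39) and 31.9 CPM (23.1 to 42.99) on 82 and 43 UMIs, with a log2 ratio of 1.98 (1.56 to 2.37) that became 0.56 in thinned cells. These were the 2 of 4 members past 2-fold, against 19.5% of 7946 genes (12.2% higher and 7.34% lower). Mmp14, at 111 CPM (106 to 116) and 98.7 CPM (82.7 to 117), overlapped between libraries, and Mmp23 was at 26.9 and 14.1 CPM (-0.74, -1.25 to -0.23). The Mmp23 ratio was under -1 under 3 of 13 other settings, at -1.01 with median-of-ratios scaling, -1.16 in thinned cells and -1.37 without the 5 cells of most Mmp23 UMIs per library.

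Different clusters held most cells of that class. Cluster 0 held 52.9% and 29.4% of them, control-labelled first, and cluster 7, led by Spink12 and Gpx2, 19.7% and 69.7%. Cluster 5 had 135 and 0 cells and cluster 6 had 224 and 1. Control-labelled cells of cluster 6 were deep, with a median of 36648 UMIs, and so weigh more in class levels, which are sums of UMIs. Timp3 was at 20.2 CPM in them. Within cluster 7, with 258 and 76 cells, Timp3 was at 35.97 and 87.5 CPM (1.18, 0.84 to 1.50). Timp2 was at 6.71 and 35.01 CPM (1.77, 1.27 to 2.24). Mmp23 was at 30.9 and 13.3 CPM (-0.97, -1.55 to -0.39), so the directions were the same there. At resolution 2.0, epithelium-like clusters led by Gm42716, Sprr2e and Cenpf had 261 and 35, 37 and 16, and 10 and 26 cells. Their median depths were 4915, 35913 and 4379 UMIs. How cluster 7 divides among them was not examined, and the part of such makeup in its ratios was not tested. Over the class, 11 of 109 cKO-labelled cells held 68.6% of 118 Timp3 UMIs, and the highest cell held 31. Fibroblast markers summed to 40.1 and 13.4 CPM in epithelium-like cells, with Pdgfra and Col1a2 at 0 in the cKO-labelled library, smooth muscle markers, all 6 detected, to 44.8 and 257 CPM and erythroid markers to 68.002 and 2.97 CPM. Their part in the inhibitor values was not tested. Mmp UMIs per 100 Timp UMIs were 389 (358 to 424) and 89.6 (71.7 to 112) over the class. They were 248 (216 to 286) and 84.1 (66.2 to 107) in cluster 7. Control-labelled cells of cluster 6 had 563 (493 to 645).

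In dendritic cell-like cells Timp1 was lower in the cKO-labelled library. It was at 56.03 CPM (45.3 to 68.6) and 12.4 CPM (8.04 to 18.3) on 94 and 25 UMIs, with a log2 ratio of -1.81 (-2.31 to -1.30), and was the 1 of 5 members past 2-fold, against 6.86% of 7086 genes (3.42% higher and 3.44% lower). Cells with Timp1 were 16.7% (11.1 to 23.6) and 7.32% (4.15 to 11.8) of 150 and 205 cells, and 4 cells held 50% of the control-labelled UMIs. At a coarser cluster resolution of 0.5 the ratio was -0.79. Timp2 was at 10.7 and 25.9 CPM (0.97, 0.37 to 1.55). Mmp12, unlike in macrophage or monocyte-like cells, was lower, at 14.3 and 6.96 CPM on 24 and 14 UMIs (-0.69, -1.32 to -0.02). Its ratio was 0.39 without the 5 cells of most Mmp12 UMIs per library. The intervals of Mmp14 (-0.05, -0.53 to 0.42) and Timp3 (-0.41, -1.04 to 0.23) held 0. In this class epithelium markers summed to 761 and 142 CPM, fibroblast markers to 141 and 357 CPM, plasma cell markers to 95.4 and 711 CPM and erythroid markers to 4.17 and 690.01 CPM, and their part was not tested. In T or NK-like cells 1 member, Timp2, was past the minimum, at 19.6 and 19.1 CPM (-0.03, -0.57 to 0.52), and 0 were past 2-fold, against 2.2% of 8164 genes (0.772% higher and 1.43% lower).

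Lymphatic endothelium-like and mesothelium-like cells were too few for a comparison and are given as values. In the former Timp2 was at 594 CPM (525 to 669) and 277 CPM (249 to 306) and Timp1 at 96.03 CPM (69.8 to 129) and 10.2 CPM (5.56 to 17.1). Mmp3 there, on 84 and 64 UMIs, came from 6.45% and 1.96% of cells. In mesothelium-like cells Timp3 was at 369 CPM (331 to 410.4) and 167 CPM (135 to 205) and Timp2 at 635 CPM (585 to 688) and 810.5 CPM (738 to 888).

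Sums over all cells differed from those within classes. Mmp3 was at 236 and 162 CPM (-0.53), Mmp12 at 13.03 and 37.5 CPM (1.24) and Timp3 at 91.8 and 255 CPM (1.43). Mmp2, lower in cKO-labelled fibroblast-like cells, was higher in that library over all cells, at 138 and 175 CPM (0.33). Timp1 (0.98) and Timp2 (0.75) were higher as well. In such sums more cells of a type and more RNA per cell cannot be told apart.

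Other genes of extracellular proteolysis were taken from 5 lists. In fibroblast-like cells 3 of 17 further metalloproteinase genes and inhibitors were past the minimum. Mmp10, a stromelysin like Mmp3, was past 2-fold and lower, at 18.8 and 6.45 CPM (-1.05, -1.28 to -0.82), while Mmp19 was at 942 and 833 CPM (-0.18) and Reck, a membrane-bound inhibitor, at 10.5 and 13.5 CPM (0.25). Of 13 ADAM and ADAMTS genes, 9 were above 0 and 4 below, with a median of 0.10 and 0 past 2-fold. The lowest were Adam19 (78.8 and 38.998 CPM, -0.93) and Adamts2, a procollagen protease (199 and 147 CPM, -0.42). The highest were Adamts6 (6.05 and 15.9 CPM, 0.92) and Adamts9 (13.7 and 23.2 CPM, 0.60).

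Among 6 plasminogen system genes of fibroblast-like cells 1 was past 2-fold, Serpine2, an inhibitor of thrombin and plasminogen activators, which was higher at 173 and 376 CPM (1.09, 1.02 to 1.17). Plau, the urokinase gene, followed at 109 and 133 CPM (0.28), and Serping1 was at 314 and 276 CPM (-0.18). Of 10 cathepsins and cystatins, 7 were below 0 and 0 past 2-fold. Cst3, which encodes cystatin C, was lowest (509.7 and 312 CPM, -0.70), then Ctsl (1315 and 975 CPM, -0.43), and Ctsc (18.3 and 34.5 CPM, 0.76) and Cstb (426 and 469 CPM, 0.13) were highest. Of 11 proenzyme activators and other inhibitors, 8 were above 0. A2m, a broad protease trap and a leading gene of cluster 22, was past 2-fold at 7.297 and 112 CPM (3.24, 3.03 to 3.46). Spock2 was at 7.402 and 14.6 CPM (0.66), Pcolce, the procollagen protease enhancer, at 59.8 and 40.1 CPM (-0.53) and Cd44 at 918 and 840.4 CPM (-0.13).

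In macrophage or monocyte-like cells the 3 further metalloproteinase genes past the minimum were lower in the cKO-labelled library, unlike Mmp12. Mmp13, a collagenase, was at 702 and 506 CPM (-0.47, -0.59 to -0.35) and Mmp19 at 793 and 554 CPM (-0.51, -0.62 to -0.40). Mmp25 was at 17.5 and 5.48 CPM (-1.11, -1.68 to -0.45) on 48 and 9 UMIs. The other 4 lists had 0 genes past 2-fold. Among them Adamts4 (0.68), Adam10 (0.48), Plau (0.64), Plat (0.64), Ctss, an elastin-cleaving cathepsin (819 and 1174 CPM, 0.52), Ctsd (0.31), Furin (0.25) and Cd44 (0.17) were highest in their lists. Adamts1 (-0.60), Adam8 (-0.09), Plgrkt (-0.27), Ctsh (-0.44), Ctso (-0.32), Bsg (0.02) and Lrp1 (0.09) were among the lowest.

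The genes most like each member were found by Pearson's r of log2(CPM + 5) over 41 points, each a cluster in 1 library with 30 or more cells, among 9013 genes. The points share libraries and cells of like depth, so r is a description only. Mmp2 was most like Ctsk (0.96), Cpxm1 (0.95) and Lox (0.95), and Mmp3 like Pappa (0.92), Tnxb (0.91) and Slit3 (0.91). Mmp12 was most like Msr1 (0.89), Ms4a7 (0.87) and Clec12a (0.86), and Mmp9 like Cyp4f18 (0.89), Iglc2 (0.88) and S100a9 (0.88). For the rest the nearest gene was Mfap2 (0.88) for Mmp11, Wtip (0.88) for Mmp14, Epb41l1 (0.87) for Mmp23, Nppc (0.81) for Timp1, Serping1 (0.94) for Timp2 and 2700081O15Rik (0.91) for Timp3. Between members r was highest for Mmp2 with Mmp3 (0.87), Mmp2 with Timp2 (0.86) and Mmp3 with Timp2 (0.86). Mmp9 and Mmp12 had an r of 0.49 with each other and lower values with every other member.

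Detection in the same fibroblast-like cell was counted for Mmp3 with 3 other members. Of control-labelled cells with Mmp3, 89.8% also had Mmp2, against 54.3% of those without, and of cKO-labelled cells 82.9% against 68.3%. Timp1 was found in 26.2% against 26.2% of control-labelled and 38.5% against 26.9% of cKO-labelled cells. Cells with Timp3 had Mmp3 in 50.8% against 40.3% of control-labelled and 26.4% against 32.4% of cKO-labelled cells. Cells with Mmp3 were deeper, with median UMIs of 14128 against 4372 and of 11878 against 9364, and the part of depth and cluster in these shares was not tested.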

How the data were processed

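The authors deposited unfiltered counts (UMIs per gene and barcode, not normalized). Cell Ranger 4 is named per the file headers, and Cell Ranger 6.1.1 and mm10 per the submitters' processing notes. The annotation release is not given in the sources used here. The members and gene lists were chosen with earlier results of these data known, and 0 columns belonged to other series.

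Barcodes were kept as cells from 1000 UMIs and 500 genes upward if mitochondrial UMIs did not exceed 20%. Scrublet marked 4 of 7076 cells (0.0565%), so doublet calling did not work and doublets remain. Scanpy 1.11.5 (Python 3.11.15) clustered the pooled libraries on 1965 variable genes, without the members and listed genes, by 30 principal components, 15 neighbours and Leiden resolution 1. A class name needed 3 of its markers in 10% of a cluster's cells with 1 among its 10 leading genes, and otherwise in 25%. These percentages were set after the data were seen. Unnamed clusters held 2.44% and 3.49% of the cells. The classes were rebuilt here and may differ from the study's own.

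UMIs were summed per class and library. Classes were compared, with no test, where each library had 100 cells or more. Intervals were exact Poisson, binomial (Clopper-Pearson) or conditional ones (scipy 1.17.1), and the ratio code was tested on simulated data. All members are named, with the 2 highest and 2 lowest ratios past the minimum from each list in fibroblast-like and macrophage or monocyte-like cells, except for a gene that is not reported here. Total UMIs were 45035801 and 34261441. Free RNA, estimated from marker genes of other classes in T or NK-like cells, was 2.94% and 1.59%. Mmp11, Mmp12, Timp1 and Timp3 overlap a gene on the other strand and Timp2 one on its own (Cep295nl), and how such reads were counted is not given in the sources used here. Alternatives varied scaling, the minimum, pseudocount, cell limits, resolution, free RNA, clusters of 1 library, within-cluster means, thinning, doublet scores and the cells of most UMIs.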

Additional observations from a re-analysis of the deposited data

Results flagged for a closer look

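The Mmp3 ratio had opposite signs in 2 classes. The log2 ratio in smooth muscle-like cells minus that in fibroblast-like cells was 2.85, with 7 and 48 UMIs in the muscle class. Timp1 was higher in cKO-labelled macrophage or monocyte-like cells and lower in cKO-labelled dendritic cell-like cells, a difference of log2 ratios of 3.53, and 2 cells held 50% of the cKO-labelled macrophage Timp1 UMIs. With 1 library per genotype neither difference was tested.

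Droplets of at most 100 UMIs, which entered no comparison, also carried the members. Their ratios had counting intervals above 0 for 4 genes. The log2 ratio was 1.49 for Timp3 (42.3 and 128 CPM), 0.73 for Timp1 (24.05 and 43.1 CPM), 0.52 for Timp2 (126 and 184 CPM) and 0.36 for Mmp2 (51.98 and 68.2 CPM). Mmp3 was at 83.8 and 79.6 CPM there (-0.07).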

How the results depend on the processing

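No paired analysis was possible because each genotype has 1 library. Of 32 ratios of a member in a class, 19 kept their sign under all 13 other settings, 12 planned and 1 chosen after seeing the data (without the 5 cells of most UMIs of the member per library). Mmp3 in fibroblast-like, Mmp12 in macrophage or monocyte-like and Timp3 in epithelium-like cells were past 2-fold under all 13. Dropping the minimum cannot move a ratio, and within-cluster means cannot in a class of 1 cluster. Leaving out clusters of 1 library cannot in a class without such a cluster, so these counts of settings overstate the number of checks. Members past 2-fold numbered 1 in fibroblast-like cells, and 2 with a pseudocount of 1 CPM or with thinning to 1000 UMIs. In smooth muscle-like cells they numbered 1, but 2 with median-of-ratios scaling, that pseudocount or free RNA subtracted, and 0 with the highest Scrublet scores removed or without the 5 cells. With at least 2000 UMIs per cell the 1 member there was Timp1, lower, not Mmp3. These 2 removals gave 1 in place of 3 in macrophage or monocyte-like cells. On thinning, the Mmp9 ratio of that class was 1.13, beyond the 2-fold limit. In dendritic cell-like cells that pseudocount and free RNA subtraction gave 2 and thinning 3, in place of 1, and at resolution 0.5 the 1 member was Timp2, higher, not Timp1. In epithelium-like cells median-of-ratios scaling and thinning gave 3 in place of 2, 1 of them lower, and without the 5 cells 1 was higher and 1 lower. Resolution 0.5 gave 1 in place of 0 among T or NK-like cells. The causes were not tested. The median ratio of all genes was 0.20 in smooth muscle-like, 0.22 in epithelium-like and 0.21 in dendritic cell-like cells, and ratios there read against it. Depth limits Mmp9, and Mmp12 outside macrophage or monocyte-like cells. Pooling leaves variation between mice unmeasured.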
